A study of Homo sapiens with 96 samples.

Results

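RBM3, RBM5, RBM6, RBM10, RBM25, RBM39, TIA1, TIAL1, PTBP1 and PTBP2 encode RNA-binding proteins, grouped here as splicing regulators. All of their own alternative splicing events were taken by gene symbol from the 8 deposited tables of splicing counts. These 10 genes, of 14397 genes listed, held 393 of 239131 events. The 393 events were 248 skipped exons, 82 pairs of mutually exclusive exons, 30 alternative 3′ splice sites, 13 alternative 5′ splice sites and 20 retained introns (RI). Many of them share an exon or intron with different neighbours, and they reduced to 264 distinct segments. Of the 393 events, 373 had enough reads to be tested in at least 1 comparison.

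The poly(A) RNA came from A549 cells, an established human lung adenocarcinoma line. Cells were grown in 0.01% DMSO for 4 or 7 days, in 1 µM GSK591 (an inhibitor of PRMT5, the main Type II arginine methyltransferase) for 2, 4 or 7 days, in 1 µM MS023 (an inhibitor of Type I PRMTs) for 2, 4 or 7 days, or in both inhibitors (co-treatment) for 2 or 4 days. Each of the 10 groups had 3 libraries, called a, b and c here by their place in the tables. The tables set the 2-day and 4-day inhibitor groups against the same 4-day DMSO libraries, so these 6 comparisons share a control and a 2-day difference also spans a difference in culture time. The 7-day groups were set against a control that was taken to be the 7-day DMSO group. The labels do not say that the libraries of a group came from separate cultures, so the spread between them may be technical. The p-values rest on that spread and on a spread pooled over all events of a type, for skipped exons mostly on the latter.

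Splicing regulators of the RBM, TIA and PTB groups bind short motifs in pre-mRNA and help or hinder the spliceosome nearby. TIA1 and its paralogue TIAL1 bind U-rich sequence downstream of 5′ splice sites and help U1 snRNP to bind there, PTBP1 binds CU-rich sequence and mostly represses exons, and PTBP2 is its paralogue of the nervous system. RBM5, RBM6 and RBM10 are related proteins with RNA recognition motifs, RBM25 and RBM39 are SR-like factors, and RBM3 is a cold-shock protein. Several splicing regulators control their own amount through exons whose inclusion or skipping shifts the reading frame or adds a stop codon, so that the mRNA is degraded by nonsense-mediated decay (NMD).

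The splicing level is given as Ψ, the share of transcripts that contain the segment, corrected for the length over which each form can collect reads. It runs from 0 to 1. For RI, Ψ is the share with the intron kept, for alternative splice sites the share with the longer exon. ΔΨ is the mean Ψ with inhibitor minus the mean Ψ with DMSO. Events with fewer than 10 reads in any library being compared were not tested, and an event was called where the adjusted p was under 0.05 (quasi-binomial model, described with the processing). Over the events listed in every table, a library held between 44767000 and 65784933 read assignments, of which 73694 to 140498 fell on the 10 genes. A read is assigned to every event it overlaps, so nested events of a gene are not independent.

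The label of the cells was checked on events of marker genes. Of 7 epithelial genes, 6 had events, with 618462 to 2170678 read assignments per library, and KRT19 had none. Of 7 genes of blood, endothelium, muscle and fibroblasts, 2 (CD3E and COL1A1) had events, with 9 to 120 read assignments per library.

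The exons and introns printed first were chosen because the results turn on them, or, for PTBP1 exon 11, because it is the known counterpart of PTBP2 exon 10. They run 5′ to 3′ on the transcribed strand of GRCh37 (hg19), with exon bases in capitals and intron bases in lower case. All are parts of coding exons or their introns except the RBM39 and TIAL1 exons, which annotation places in transcripts marked for NMD, and the RBM3 exon, whose transcripts have no defined coding sequence. Of these 3 exons only the splice sites are shown. PTBP1 exon 9 (chr19:805492-805569, 78 nt) is a coding exon whose length keeps the reading frame. A second 3′ splice site 21 nt further in gives a 57-nt form.
PTBP1 exon 9: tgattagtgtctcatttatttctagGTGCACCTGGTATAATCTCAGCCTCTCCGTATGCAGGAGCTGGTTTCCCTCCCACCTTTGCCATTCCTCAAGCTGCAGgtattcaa
PTBP1 exon 11: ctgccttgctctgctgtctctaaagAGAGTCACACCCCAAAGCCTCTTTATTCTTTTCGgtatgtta
PTBP2 exon 10: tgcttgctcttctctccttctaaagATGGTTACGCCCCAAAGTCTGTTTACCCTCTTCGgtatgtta
TIA1 exon 5: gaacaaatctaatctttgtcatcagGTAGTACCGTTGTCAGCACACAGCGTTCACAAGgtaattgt
RBM10 exon 6: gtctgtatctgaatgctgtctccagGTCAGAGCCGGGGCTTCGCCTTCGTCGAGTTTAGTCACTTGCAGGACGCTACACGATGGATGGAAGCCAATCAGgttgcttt
RBM5 exon 16: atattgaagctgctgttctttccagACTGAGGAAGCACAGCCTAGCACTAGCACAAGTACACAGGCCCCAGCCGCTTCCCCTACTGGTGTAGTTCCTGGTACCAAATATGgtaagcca
RBM5 intron 23: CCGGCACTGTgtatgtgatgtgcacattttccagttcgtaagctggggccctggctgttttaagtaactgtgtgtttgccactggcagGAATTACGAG
RBM6 intron 14 5′ splice site: CAGgtgagt
RBM6 intron 14 3′ splice site: tgtttccaactgtatcgcagCAA
RBM39 73-nt exon 3′ splice site: ccatctatctctctttgtagACT
RBM39 73-nt exon 5′ splice site: AAGgtagta
TIAL1 376-nt exon 3′ splice site: gcattctggttattttgcagAAT
TIAL1 376-nt exon 5′ splice site: CATgtatgc
RBM3 269-nt exon 3′ splice site: atgactgccttttgttctagGGG
RBM3 269-nt exon 5′ splice site: GATgtaagt

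PTBP1 exon 11 (chr19:807869-807902) and PTBP2 exon 10 (chr1:97271975-97272008) are the 34-nt counterparts whose skipping shifts the frame. Their bases were identical at 25 of 34 positions. In the 20 intron bases before the closing AG, C or T made up 75% for PTBP1 exon 9 and PTBP1 exon 11, 85% for PTBP2 exon 10 and 65% for TIA1 exon 5.

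Against DMSO, GSK591 changed 21 of 230 tested events of the 10 genes at 2 days, of which 6 rose and 15 fell, beside 7.02% called among all events tested. It changed 31 of 212 at 4 days (17 higher and 14 lower, all events 11.2%) and 27 of 201 at 7 days (14 higher and 13 lower, all events 8.93%). MS023 changed 16 of 185 at 2 days (5 higher and 11 lower, all events 3.16%), 21 of 211 at 4 days (8 higher and 13 lower, all events 3.75%) and 24 of 185 at 7 days (9 higher and 15 lower, all events 4.75%). Co-treatment changed 39 of 215 at 2 days (9 higher and 30 lower, all events 13.4%) and 46 of 226 at 4 days (13 higher and 33 lower, all events 14.7%). The share called among the members was 9.13%, 14.6% and 13.4% for GSK591, 8.65%, 9.95% and 12.97% for MS023, and 18.1% and 20.4% for co-treatment. RBM3 alone, with mostly overlapping events that share reads, held 9 of the 16, 8 of the 21 and 8 of the 24 MS023 calls. It held 1, 4 and 6 of the GSK591 calls, and 12 and 11 of the co-treatment calls. The member shares are thus not an even trait of the 10 genes. Lower Ψ thus outnumbered higher Ψ for co-treatment, and this was also so among all events, of which 4866 were higher and 10934 lower at 2 days. A limma fit of the log2 odds, which gives an event the same weight whatever its reads, called 1, 8 and 2 member events with GSK591 at 2, 4 and 7 days (all events 0.565%, 2.5% and 0.987%) and 9 and 17 with co-treatment (all events 4.15% and 5.77%). With MS023 it called 0 member events each time, with 13, 21 and 23 at an unadjusted p under 0.05, beside 0.0289%, 0.021% and 0.0249% of all events. Calls that this fit also made against DMSO include RBM5 intron 23 with GSK591 and co-treatment at every time, RBM6 intron 14 with GSK591 for 4 days and with co-treatment, PTBP1 intron 4 with GSK591 and co-treatment for 4 days, and the TIA1 133-nt extension with co-treatment for 4 days. It made none for PTBP1 exon 9 as a skipped exon, TIA1 exon 5, the TIAL1 376-nt exon, the RBM39 73-nt exon as a skipped exon or the RBM3 269-nt exon. On simulated counts with the odds of 200 events changed 8-fold, the limma fit recovered 0 skipped exons and 195 or 198 introns. A missing limma call on a skipped exon therefore says little about that exon.

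**Figure D1:**
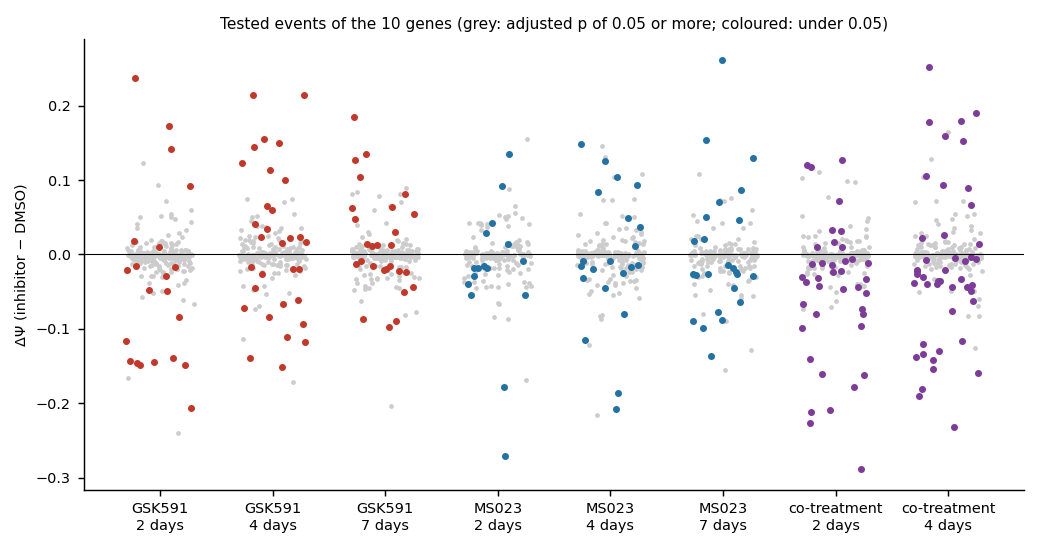
Each point is 1 tested event of the 10 genes in 1 comparison, with ΔΨ on the y axis and coloured where the adjusted p was under 0.05. Called events run from a ΔΨ of -0.289 with co-treatment for 2 days to 0.262 with MS023 for 7 days, and most tested events lie near 0. The event at 0.262, of the TIA1 119-nt exon, has as few as 28 reads in a library. With any 1 library left out, the better-read event of this exon gave 0.0816 to 0.0926 and was not called.

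Across the 8 comparisons with DMSO, 72 of the 372 member events tested were called at least once, in 68 segments, beside 16.6% of all events tested. By gene these were 17 of 37 tested events of RBM3, 11 of 61 of RBM39, 10 of 36 of TIA1 and 8 of 27 of TIAL1. RBM5 had 6 of 33, RBM6 6 of 37 and PTBP1 6 of 41. For RBM10 it was 4 of 43, for RBM25 3 of 42 and for PTBP2 1 of 15. With GSK591 10, 8 and 8 of the 10 genes had a called event at 2, 4 and 7 days, beside 33.7%, 45.2% and 37.8% of all genes tested. With MS023 6, 6 and 5 of the 10 had one, beside 19.3%, 22.4% and 24.4%, and with co-treatment 9 and 10 of the 10 at 2 and 4 days, beside 52.4% and 54.4%. The member genes had a median of 20 to 23.5 tested events each in these comparisons, against 6 to 7 for all genes, so the gene counts are not on an equal footing.

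**Figure D2:**
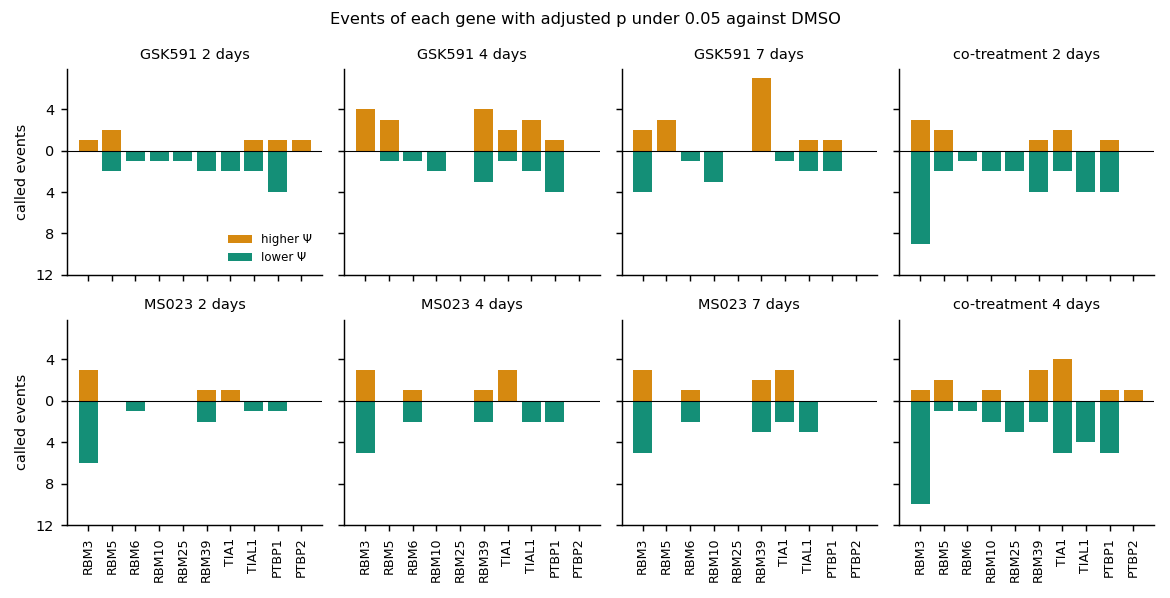
Bars give the number of called events of each gene with higher Ψ (up) and lower Ψ (down) than DMSO, 1 panel per treatment and time. RBM3 holds the tallest bar, with 10 events lower under co-treatment for 4 days, and RBM39 has 7 events higher and none lower under GSK591 for 7 days.

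GSK591 and MS023 were also set against each other at matched times. They differed in 34 of 152 tested member events at 2 days (all events 11.7%), in 36 of 156 at 4 days (all events 17.1%) and in 28 of 156 at 7 days (all events 14.7%). The limma fit called 5, 9 and 5 member events (all events 1.9%, 5.67% and 4.16%). Co-treatment differed from GSK591 alone in 21 of 158 at 2 days (all events 4.41%) and in 24 of 156 at 4 days (all events 6.53%). RBM3 held 11 of these 21 and 10 of these 24. The limma fit called 0 member events in both comparisons of co-treatment with GSK591 (16 and 20 at an unadjusted p under 0.05), beside 0.0189% and 0.0439% of all events, so every difference between co-treatment and GSK591 alone that is given for a single exon rests on the quasi-binomial model. The 7-day DMSO libraries differed from the 4-day DMSO libraries in 21 of 178 member events (all events 7.04%), and limma called 3 (all events 1.85%).

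Of the 20 member introns, 16 to 19 were tested per comparison. GSK591 changed 6 of 17 at 2 days (4 higher), 8 of 16 at 4 days (7 higher) and 6 of 19 at 7 days (4 higher), beside 26.4%, 38.2% and 27.9% of all introns tested. MS023 changed 2 of 17, 4 of 18 and 2 of 19, with 1 higher each time, beside 5.65%, 7.17% and 11.4% of all introns. Co-treatment changed 9 of 17 at 2 days (3 higher) and 9 of 18 at 4 days (5 higher), beside 34.7% and 39.7% of all introns.

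PTBP1, the polypyrimidine tract-binding protein, had less of exon 9, the exon that separates its longer from its shorter protein isoforms. Ψ was 0.678, 0.719 and 0.669 in the 4-day DMSO libraries and 0.509, 0.551 and 0.589 with GSK591 for 2 days. It was 0.487, 0.497 and 0.453 with co-treatment for 2 days and 0.499, 0.523 and 0.502 for 4 days. All libraries with GSK591 for 2 or 4 days or with co-treatment were below all 4-day DMSO libraries. ΔΨ was -0.139 for GSK591 at 2 days (log2 odds -0.84 ± 0.09 SE, adjusted p = 3.02e-09) and -0.111 at 4 days (adjusted p = 6.65e-09). With co-treatment it was -0.21 at 2 days (log2 odds -1.27 ± 0.08 SE, adjusted p = 2.23e-18) and -0.181 at 4 days (adjusted p = 1.85e-13).

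Co-treatment was lower than GSK591 alone for exon 9, by a ΔΨ of -0.0708 at 2 days (adjusted p = 8.93e-06, or 0.0947 where the exon was given at least the spread of its own libraries) and -0.0693 at 4 days (adjusted p = 0.000569). MS023 alone gave a ΔΨ of -0.0546 at 2 days (adjusted p = 1.98e-05) and -0.0447 at 4 days (adjusted p = 0.00343). Each of these MS023 calls was lost without 4 of the 6 libraries, DMSO library b and any of MS023 libraries a, b and c, with adjusted p up to 0.101 and 0.419. Without DMSO library b the 4-day value was -0.0296, and without MS023 library b it was -0.0252. Culture time moved exon 9 as well. Ψ was 0.487, 0.531 and 0.528 in the 7-day DMSO libraries, a ΔΨ of -0.173 from 4 days (adjusted p = 3.56e-27), and against these the 7-day values of GSK591, 0.477, 0.435 and 0.482, differed by -0.0506, a call that was lost without any 1 of the 6 libraries (adjusted p 0.0516 to 0.289).

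The 57-nt form of exon 9 (chr19:805513-805569) followed, from 0.368 ± 0.00855 (SD, n = 3) with DMSO for 4 days to 0.252 ± 0.0177 with GSK591 for 2 days and 0.208 ± 0.026 with co-treatment for 2 days. These are ΔΨ of -0.116 (adjusted p = 8.21e-08) and -0.161 (adjusted p = 5.14e-13), on reads partly shared with the 78-nt form. The pair of exon 9 and the 149-nt exon 10, read as mutually exclusive, moved the same way with co-treatment, with a ΔΨ of -0.212 at 2 days (adjusted p = 2.21e-08).

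Exon 11 of PTBP1, the exon through which the gene is known to limit itself, did not pass the test in any of the 8 comparisons. The group means of Ψ lay between 0.972 and 0.98 and ΔΨ between -0.00648 with MS023 for 7 days and 0.00579 with GSK591 for 2 days, on 804 to 3143 reads per library. Intron 4 of PTBP1 (chr19:804209-804291, 83 nt) was kept in few transcripts but rose with GSK591. Ψ was 0.0177, 0.0221 and 0.024 with DMSO for 4 days and 0.0493, 0.0397 and 0.0442 with GSK591 for 4 days (ΔΨ 0.0232, adjusted p = 5.29e-05), and it reached 0.0496, 0.0425 and 0.0483 with co-treatment (ΔΨ 0.0256, adjusted p = 1.14e-05). With MS023 for 4 days it was 0.0123, 0.0122 and 0.0132. GSK591 was above MS023 at each time, with a ΔΨ of 0.0256 at 2 days, 0.0319 at 4 days and 0.0212 at 7 days (adjusted p = 3.09e-06, 3.65e-09 and 1.45e-05).

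PTBP2, the paralogue that PTBP1 is known to repress, had 1 event called against DMSO. Exon 10 had Ψ of 0.614, 0.576 and 0.731 with DMSO for 4 days on 39 to 59 reads, 0.756, 0.839 and 0.844 with GSK591 for 2 days, and 0.803, 0.841 and 0.847 with co-treatment for 4 days. The ΔΨ was 0.173 (adjusted p = 0.0274) and 0.19 (adjusted p = 0.00837). Both calls were lost without DMSO library a or b, and the first also without GSK591 library b or c (adjusted p up to 0.217), the second without co-treatment library b or c (adjusted p up to 0.0949). At 2 days GSK591 was above MS023, where Ψ was 0.379, 0.53 and 0.504 (ΔΨ 0.342, log2 odds 2.41 ± 0.47 SE, adjusted p = 4.72e-05), and that difference was called without any 1 library too.

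**Figure D3:**
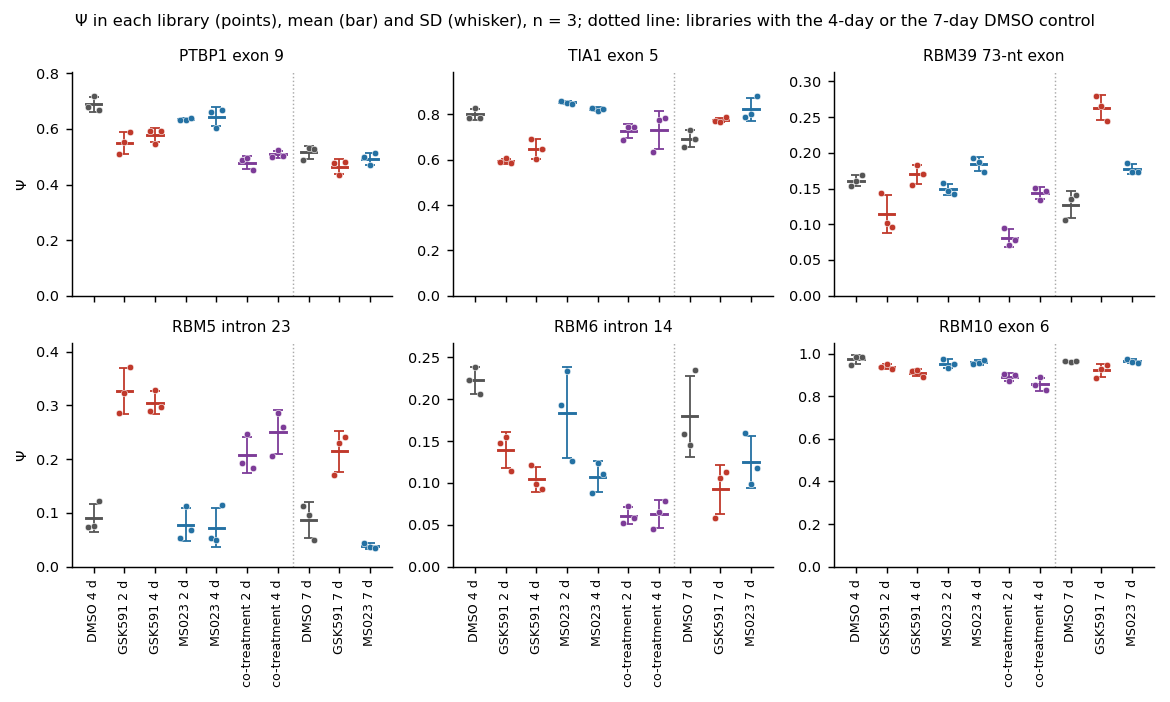
Each panel shows Ψ of 1 segment in the 3 libraries of the 10 groups as points, with the mean as a bar and the SD as a whisker. PTBP1 exon 9 is lowest with co-treatment and in the 7-day groups, RBM5 intron 23 is high wherever GSK591 was present, and the RBM39 73-nt exon stands at 0.245 to 0.28 with GSK591 for 7 days against 0.106 to 0.142 with 7-day DMSO.

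TIA1, the U-rich binding protein, skipped exon 5 (chr2:70456191-70456223, 33 nt, frame-keeping) more with GSK591 at early times. Ψ was 0.786, 0.83 and 0.785 with DMSO for 4 days, 0.591, 0.606 and 0.585 with GSK591 for 2 days, and 0.692, 0.605 and 0.649 for 4 days. All 6 GSK591 libraries were below all 3 DMSO libraries, and the 2 GSK591 groups overlapped each other. ΔΨ was -0.207 at 2 days (log2 odds -1.44 ± 0.23 SE, adjusted p = 2.58e-05) and -0.152 at 4 days (adjusted p = 0.00101). With MS023 for 2 days it was 0.861, 0.851 and 0.847, without a call against DMSO. GSK591 was lower than MS023 by 0.259 in Ψ at 2 days (ΔΨ -0.259, adjusted p = 5.73e-08) and at 4 days by a ΔΨ of -0.175 (adjusted p = 0.000394). Co-treatment for 2 days was above GSK591 alone by a ΔΨ of 0.133, a call that was lost without any 1 library (adjusted p up to 0.222).

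At 7 days the order turned. The DMSO libraries had 0.655, 0.729 and 0.693, GSK591 had 0.772, 0.768 and 0.787, and MS023 had 0.786, 0.8 and 0.882. The ΔΨ of 0.0833 for GSK591 did not pass (adjusted p = 0.138), and that of 0.13 for MS023 passed (adjusted p = 0.0112) but was not called without DMSO library a or c or any 1 MS023 library (adjusted p up to 0.273). The change in the effect of GSK591 from 4 to 7 days was itself tested and came to 0.235 in Ψ (log2 odds 1.78 ± 0.37 SE, adjusted p = 0.00478), and it was called without any 1 of the 12 libraries.

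Other TIA1 segments rose. A longer form of exon 8, which adds 133 nt at its 5′ splice site (chr2:70443885-70444017), had Ψ of 0.173, 0.145 and 0.165 with DMSO for 4 days, 0.293, 0.275 and 0.347 with GSK591 for 4 days, and 0.433, 0.414 and 0.393 with co-treatment for 4 days. The ΔΨ of 0.144 (adjusted p = 4.99e-05) and 0.252 (adjusted p = 6.39e-09) were larger than the spread between libraries, and co-treatment at 2 days gave 0.127 (adjusted p = 0.000258). A 66-nt exon in intron 6 that annotation puts in NMD transcripts (chr2:70452460-70452525) had Ψ of 0.139 ± 0.00441 with DMSO for 4 days, 0.239 ± 0.0161 with GSK591 for 4 days (ΔΨ 0.0996, adjusted p = 0.00404) and 0.292 ± 0.0893 with co-treatment (ΔΨ 0.152, adjusted p = 0.000176). A 119-nt exon in intron 5 (chr2:70455476-70455594), in transcripts with no defined coding sequence, had 0.302 ± 0.0736 with co-treatment for 4 days against 0.124 ± 0.0225 (ΔΨ 0.178, adjusted p = 2.06e-05). MS023 alone for 4 days was also called for these 3 segments, all higher, with a median ΔΨ of 0.1035. Each of these MS023 calls was lost when certain single libraries were left out. Adjusted p then reached 0.237 for the 133-nt extension, 0.224 for the 66-nt exon and 0.0747 for the 119-nt exon. The annotation has C2orf42, a gene of the same strand, overlapping these TIA1 segments and exon 5, so their reads could come from either gene.

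TIAL1, the paralogue of TIA1, has a 376-nt exon in intron 5 (chr10:121339983-121340358) that annotation puts in NMD transcripts, and it fell with MS023 and with co-treatment. Ψ was 0.0718, 0.077 and 0.0705 with DMSO for 4 days, 0.0368, 0.0322 and 0.0317 with MS023 for 2 days, and 0.0266, 0.0176 and 0.0202 with co-treatment for 2 days. Each group was below DMSO in every library. ΔΨ was -0.0396 for MS023 at 2 days (adjusted p = 1.08e-10), -0.0314 at 4 days (adjusted p = 5.41e-06) and -0.0264 at 7 days (adjusted p = 6.48e-07), and for co-treatment -0.0517 at 2 days (adjusted p = 8.37e-13) and -0.0396 at 4 days (adjusted p = 3.3e-08).

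With GSK591 alone Ψ was 0.0839, 0.0762 and 0.0761 at 2 days and 0.137, 0.0921 and 0.0937 at 4 days. The 4-day rise of 0.0344 (adjusted p = 0.00182) was lost without DMSO library c or GSK591 library a, the latter being the highest value (adjusted p up to 0.0802). Without GSK591 library a the rise was 0.0198. Co-treatment was below GSK591 alone by a ΔΨ of -0.0573 at 2 days (adjusted p = 1.04e-25) and -0.074 at 4 days (adjusted p = 2.44e-29). The 7-day DMSO libraries had 0.039, 0.0538 and 0.0574.

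The same 376-nt exon has a second 3′ splice site inside it, and use of its longer form, which adds 308 nt, rose with GSK591 from 0.887, 0.833 and 0.791 to 1, 0.976 and 0.964 at 2 days (ΔΨ 0.142, adjusted p = 0.00363) and 1, 0.989 and 0.989 at 4 days (ΔΨ 0.155, adjusted p = 7.7e-05). A 51-nt extension of exon 3 (chr10:121342070-121342120), which lies in the coding sequence and keeps the frame, was used more with GSK591 than with MS023 at 4 days (ΔΨ 0.0834, adjusted p = 0.00112) and at 7 days (ΔΨ 0.111, adjusted p = 1.01e-05). The means at 7 days were 0.429 ± 0.0341 and 0.319 ± 0.0257 (SD, n = 3). Intron 10, the only listed intron of the gene (chr10:121336263-121336591), fell with co-treatment from 0.0752 ± 0.00432 to 0.0418 ± 0.00378 at 2 days (ΔΨ -0.0335, adjusted p = 4.44e-05) and did not pass with either inhibitor alone.

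RBM5, a regulator of apoptosis genes, kept its 78-nt intron 23 (chr3:50154605-50154682) far more often with GSK591. Ψ was 0.0737, 0.0765 and 0.122 with DMSO for 4 days, 0.286, 0.324 and 0.372 with GSK591 for 2 days, and 0.289, 0.329 and 0.297 for 4 days. At 7 days it was 0.113, 0.0969 and 0.0501 with DMSO and 0.171, 0.231 and 0.241 with GSK591. No GSK591 library overlapped its DMSO group. ΔΨ was 0.237 (log2 odds 2.22 ± 0.32 SE, adjusted p = 3e-05), 0.214 (adjusted p = 2.81e-06) and 0.128 (adjusted p = 0.000396) at 2, 4 and 7 days.

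Co-treatment raised intron 23 too, to 0.192, 0.247 and 0.184 at 2 days (ΔΨ 0.117, adjusted p = 0.00136) and 0.206, 0.285 and 0.26 at 4 days (ΔΨ 0.16, adjusted p = 6.16e-05). With MS023 it was 0.0781 ± 0.0311, 0.0723 ± 0.0362 and 0.0384 ± 0.00549 (SD, n = 3) at 2, 4 and 7 days, none of which passed against DMSO. The values rest on 133 to 348 reads per library. The lncRNA SEMA3F-AS1 is annotated on the other strand over this intron, and whether the counting used strand is not given in the sources used here. Among 1018 introns that were called with GSK591 for 2 days and listed in every table, those with the most similar mean Ψ over the 10 groups were introns of NECAP2 and ABCC10 (Pearson r = 0.983 each) and DDX11 (r = 0.981). Their own ΔΨ at 2 days was 0.0248, 0.264 and 0.352, so the likeness is one of pattern and not of size, and the 10 points share their libraries.

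RBM5 intron 6 (chr3:50138039-50140515, 2477 nt) rose with GSK591 for 4 days, from 0.239, 0.185 and 0.212 to 0.34, 0.31 and 0.434 (ΔΨ 0.149, adjusted p = 0.000776), and with co-treatment for 4 days to 0.316, 0.276 and 0.359 (ΔΨ 0.105, adjusted p = 0.00416). RBM5-AS1 is annotated on the other strand over this intron. Exon 16 (chr3:50147812-50147896, 85 nt, whose skipping shifts the frame) fell. Ψ was 0.954, 0.931 and 0.926 with DMSO for 4 days, 0.836, 0.737 and 0.805 with GSK591 for 2 days and 0.737, 0.814 and 0.726 with co-treatment for 2 days, with ΔΨ of -0.144 (adjusted p = 0.000252) and -0.178 (adjusted p = 1.2e-05). At 4 days ΔΨ was -0.0938 with GSK591 (adjusted p = 0.00488) and -0.13 with co-treatment (adjusted p = 0.00022). A 64-nt exon of intron 3 that annotation puts in NMD transcripts was hardly used, with a group mean of Ψ of at most 0.00128 in the groups that list it.

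RBM6, a relative of RBM5 and its neighbour on chromosome 3, kept its intron 14 less often with each inhibitor at 4 days and with both together. This intron (chr3:50098981-50099394, 414 nt) had Ψ of 0.223, 0.239 and 0.206 with DMSO for 4 days, 0.121, 0.0983 and 0.0931 with GSK591 for 4 days, 0.0875, 0.124 and 0.111 with MS023 for 4 days, and 0.0445, 0.0654 and 0.0783 with co-treatment for 4 days. No treated library reached the DMSO range. ΔΨ was -0.118 (adjusted p = 0.000433), -0.115 (adjusted p = 0.00184) and -0.16 (log2 odds -2.16 ± 0.30 SE, adjusted p = 9.44e-07). At 2 days it was -0.162 with co-treatment (adjusted p = 1.32e-06) and -0.0835 with GSK591 (adjusted p = 0.0202), the latter lost without DMSO library a or b or GSK591 library c (adjusted p up to 0.0802). The 7-day value of -0.0874 with GSK591 (adjusted p = 0.0103) was lost without GSK591 library a (adjusted p = 0.128).

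Exon 3 of RBM6, the long coding exon, had a ΔΨ of -0.0887 with MS023 for 7 days (adjusted p = 0.0249), and was not called without any 1 of the DMSO libraries, MS023 library a or MS023 library c (adjusted p up to 0.416). Without MS023 library a the value was -0.0549. A longer version of the exon, 1551 nt, gave -0.0993 and was lost without any 1 of the 6 libraries, with -0.0616 without MS023 library a.

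RBM10, whose loss is known in lung adenocarcinoma, had lower use of exon 6 (chrX:47034418-47034491, 74 nt, whose skipping shifts the frame). Ψ was 0.948, 0.985 and 0.984 with DMSO for 4 days, 0.905, 0.871 and 0.9 with co-treatment for 2 days, and 0.852, 0.889 and 0.828 for 4 days. The co-treated libraries were all below DMSO, with ΔΨ of -0.0804 (adjusted p = 2.64e-05) and -0.116 (log2 odds -2.59 ± 0.42 SE, adjusted p = 8.59e-07). GSK591 for 4 days gave 0.919, 0.923 and 0.891 (ΔΨ -0.0614, adjusted p = 0.000606), lost without GSK591 library c (adjusted p = 0.0869). GSK591 for 7 days gave -0.0434, lost without any 1 DMSO library or GSK591 library a or b (adjusted p up to 0.275), and without GSK591 library a the value was -0.026.

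Exon 4 of RBM10 (chrX:47030427-47030657, 231 nt, frame-keeping) is its best known alternative exon. It had Ψ of 0.795, 0.792 and 0.698 with DMSO for 7 days and 0.704, 0.636 and 0.653 with GSK591 for 7 days, so that the ranges overlapped. The ΔΨ of -0.0975 (adjusted p = 0.000275) was lost without DMSO library a or b or GSK591 library b or c (adjusted p up to 0.22). In the other 7 comparisons it did not pass, with ΔΨ from -0.047 with GSK591 for 4 days to 0.051 with co-treatment for 4 days.

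RBM25, an SR-like factor of apoptotic splicing, had 3 called events. Intron 9 (chr14:73566459-73569899, 3441 nt), its most read intron, was kept less with GSK591 for 2 days, at 0.105, 0.101 and 0.115 against 0.172, 0.149 and 0.148 (ΔΨ -0.0497, adjusted p = 0.000493). With co-treatment it was 0.104, 0.0678 and 0.0799 at 2 days (ΔΨ -0.0729, adjusted p = 1.81e-06) and 0.115, 0.131 and 0.116 at 4 days (ΔΨ -0.0362, adjusted p = 0.00478). With GSK591 for 4 days it was 0.185, 0.153 and 0.142, which overlapped the DMSO libraries. Without inhibitor at 7 days it was 0.1065, 0.0904 and 0.1377, lower than in 4-day DMSO by 0.0452. That call was lost without 4-day DMSO library a or 7-day DMSO library a or b. With GSK591 for 7 days Ψ was 0.1168, 0.1146 and 0.1026, within the 7-day DMSO range. The part of culture time in the 2-day differences was not tested.

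RBM39, a coactivator of splicing that resembles U2AF, has a 73-nt exon in intron 2 (chr20:34328447-34328519) that annotation puts in NMD transcripts, and it fell at 2 days and rose at 7 days. Ψ was 0.153, 0.16 and 0.169 with DMSO for 4 days. It was 0.0953, 0.0706 and 0.0779 with co-treatment for 2 days (ΔΨ -0.0795, adjusted p = 1.62e-11) and 0.144, 0.101 and 0.0955 with GSK591 for 2 days (ΔΨ -0.0472, adjusted p = 0.00058). The latter was lost without GSK591 library b or c (adjusted p up to 0.0729). With GSK591 for 4 days it was 0.155, 0.183 and 0.171, which overlapped DMSO (adjusted p = 0.498).

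At 7 days Ψ of the 73-nt exon was 0.106, 0.135 and 0.142 with DMSO and 0.28, 0.265 and 0.245 with GSK591, a ΔΨ of 0.136 (log2 odds 1.30 ± 0.11 SE, adjusted p = 6.35e-28). The change in the effect of GSK591 from 4 to 7 days was 0.127 (adjusted p = 5.31e-06). MS023 for 7 days had 0.185, 0.173 and 0.173 (ΔΨ 0.0498, adjusted p = 7.47e-05), a call lost without DMSO library a or MS023 library a (adjusted p up to 0.076). GSK591 stood above MS023 at 7 days (ΔΨ 0.086, adjusted p = 3.13e-08).

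A 72-nt exon of intron 3 of RBM39 (chr20:34322108-34322179), again in NMD or undefined transcripts, was used more with both inhibitors. Ψ was 0.0109, 0.0266 and 0.0104 with DMSO for 4 days, 0.0377, 0.0363 and 0.0398 with GSK591 for 4 days, 0.0554, 0.0666 and 0.0714 with MS023 for 4 days and 0.0834, 0.0766 and 0.0856 with co-treatment for 4 days. The 4 groups stood apart in that order. ΔΨ with MS023 was 0.0486 (adjusted p = 3.66e-11) and with co-treatment 0.0659 (log2 odds 2.38 ± 0.25 SE, adjusted p = 4.03e-11). With GSK591 it was 0.022 (adjusted p = 0.000628), lost without GSK591 library a or c (adjusted p up to 0.0702). Co-treatment exceeded GSK591 alone by 0.044 (adjusted p = 3.18e-08).

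A 155-nt NMD exon of intron 2 (chr20:34327315-34327469) rose from 0.00969 ± 0.00158 to 0.0257 ± 0.00282 (SD, n = 3) with GSK591 for 4 days (ΔΨ 0.016, adjusted p = 3.26e-05). The 2 exons lie inside intron 2, so their reads also count toward its retention. Intron 2 (chr20:34326940-34328745, 1806 nt) had Ψ of 0.062, 0.0703 and 0.0617 with DMSO for 4 days and 0.0934, 0.111 and 0.111 with GSK591 for 4 days (ΔΨ 0.0404, adjusted p = 4.98e-07). At 7 days it was 0.0554, 0.0527 and 0.0584 with DMSO and 0.104, 0.108 and 0.117 with GSK591 (ΔΨ 0.0539, adjusted p = 8.06e-09). Co-treatment lowered it at 2 days (ΔΨ -0.0236, adjusted p = 6.48e-06) and raised it at 4 days (ΔΨ 0.0227, adjusted p = 3.51e-05). The remaining NMD exons of RBM39 were not called, with group means of at most 0.00697 for the one of 53 nt and at least 0.995 for the one of 86 nt.

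**Figure D4:**
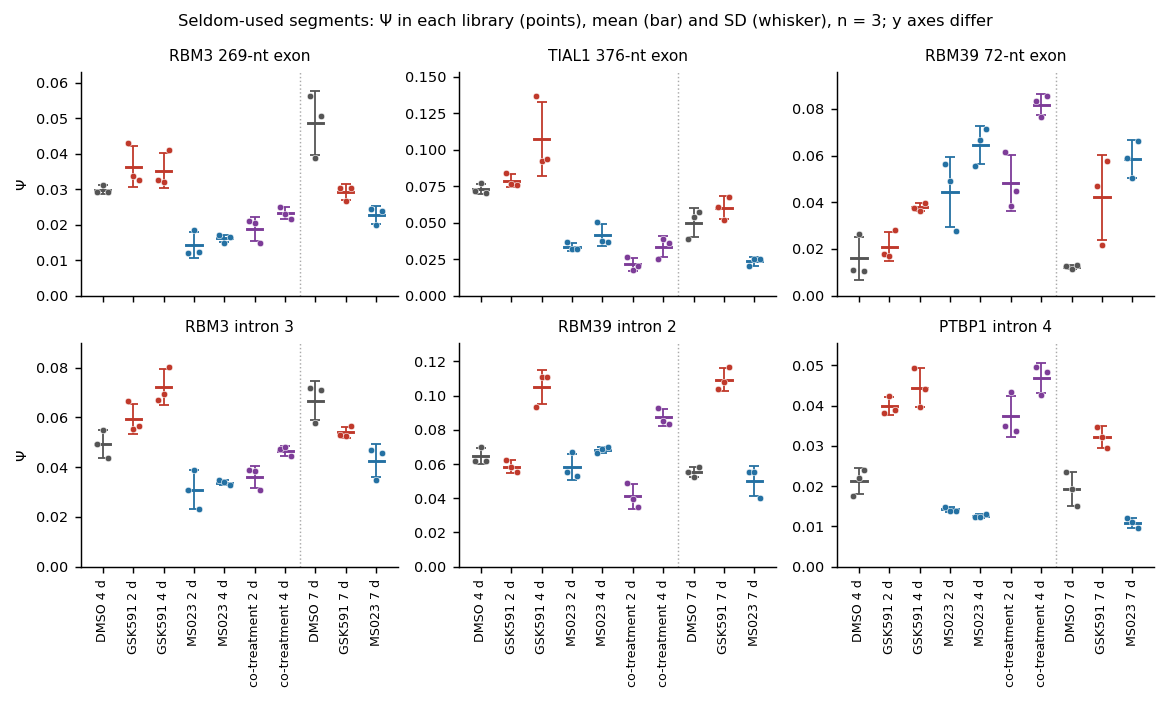
Each panel shows Ψ of a seldom-used segment in the 3 libraries of each group as points, with the mean as a bar, the SD as a whisker and a y axis of its own. The TIAL1 exon and the RBM3 exon are low with MS023 and co-treatment, the RBM39 72-nt exon is highest with co-treatment for 4 days, and PTBP1 intron 4 is high with GSK591 and co-treatment.

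RBM3, the cold-shock protein, had the most called events, most of them around intron 3 (chrX:48434056-48434701, 646 nt). Within it lies a 269-nt exon (chrX:48434203-48434471) of transcripts with no defined coding sequence, which was picked out after its values were seen. Ψ of the exon was 0.0292, 0.0313 and 0.0292 with DMSO for 4 days, 0.0121, 0.0185 and 0.0124 with MS023 for 2 days, 0.017, 0.015 and 0.0166 with MS023 for 4 days and 0.0211, 0.0205 and 0.015 with co-treatment for 2 days. None of these treated libraries overlapped DMSO. ΔΨ was -0.0156 (log2 odds -1.10 ± 0.11 SE, adjusted p = 2.51e-16), -0.0137 (adjusted p = 1.49e-10) and -0.0111 (adjusted p = 9.53e-06). Counted from another upstream exon, on fewer reads (157 and more per library), the same exon had a ΔΨ of -0.271 with MS023 for 2 days (adjusted p = 2.55e-07) and of -0.289 with co-treatment for 2 days (adjusted p = 1.08e-06).

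With GSK591 the RBM3 exon fell against the 7-day control, where the DMSO libraries had 0.0563, 0.0387 and 0.0508 and GSK591 0.0305, 0.0267 and 0.0304 (ΔΨ -0.0194, adjusted p = 4.43e-12). At 4 days the values were 0.0326, 0.0322 and 0.041 (adjusted p = 0.145). The 7-day DMSO libraries were above the 4-day ones by 0.0187 (adjusted p = 6.21e-07), a call that was lost without 7-day DMSO library a or c (adjusted p up to 0.117). Intron 3 as a whole, whose count includes reads on the exon, was 0.0493, 0.0549 and 0.0436 with DMSO for 4 days, 0.0668, 0.0692 and 0.0803 with GSK591 for 4 days (ΔΨ 0.0228, adjusted p = 2.28e-05) and 0.0348, 0.0339 and 0.0327 with MS023 for 4 days (ΔΨ -0.0155, adjusted p = 0.000235). GSK591 exceeded MS023 by 0.0383 (adjusted p = 4.48e-15).

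For the 230-nt intron after the 269-nt exon (chrX:48434472-48434701), Ψ rose with MS023, from 0.692, 0.693 and 0.717 to 0.854, 0.855 and 0.84 at 4 days (ΔΨ 0.149, adjusted p = 0.00648). Its spliced form is counted on the junction that also joins the 269-nt exon to the next exon. Reads on this junction were 47, 59 and 45 with DMSO for 4 days and 24, 27 and 26 with MS023 for 4 days. The part of the fall of the 269-nt exon in the higher Ψ was not tested, so more frequent retention is not shown. With GSK591 for 4 days Ψ of the 230-nt intron was 0.819, 0.789 and 0.834 (ΔΨ 0.113, adjusted p = 0.00644). The 7-day rise of 0.154 with MS023 was lost without MS023 library c (adjusted p = 0.0608).

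**Figure D5:**
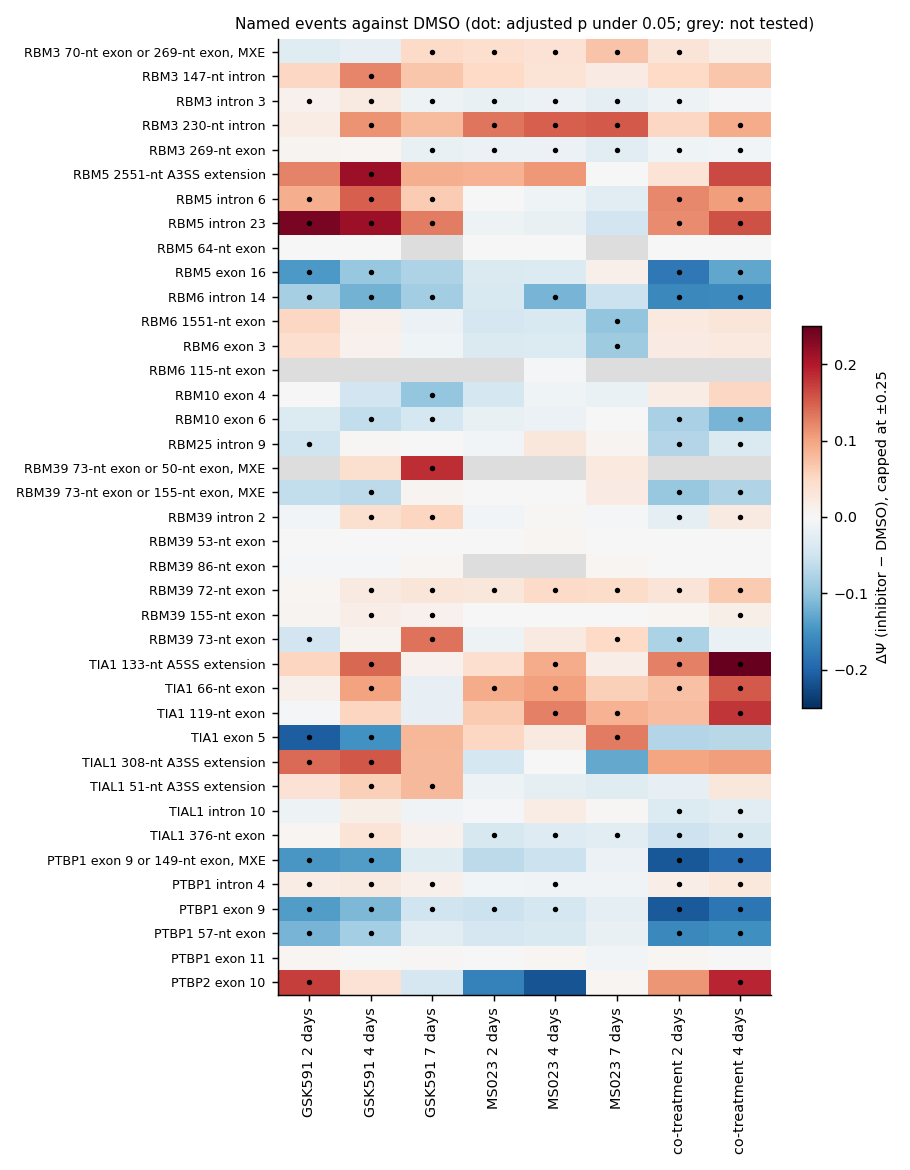
Rows are the named events of the 10 genes and columns the 8 comparisons with DMSO. Colour gives ΔΨ capped at ±0.25, dots mark adjusted p under 0.05 and grey marks events not tested, and both PTBP1 exon 9 forms are blue with GSK591 and co-treatment while RBM5 intron 23 is red in the same columns.

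The effect of GSK591 at 7 days differed from that at 4 days in 9 of 167 member events (all events 1.52%), 5 of RBM3, 2 of RBM39 and 2 of TIA1. The limma fit called 0 of the 167 (18 at an unadjusted p under 0.05), beside 0.0179% of all events. The same test for MS023 gave 0 of 152 (all events 0.0678%), with 5 at an unadjusted p under 0.05, and 0 with limma on the log2 odds (3 at an unadjusted p under 0.05, all events 0.00126%).

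Other regulators were read in the same way. Of 24 other RBM genes with events, 13 had a called event with GSK591 for 4 days, beside 45.2% of all genes tested. These were 28 of 226 events (13 higher and 15 lower, beside 11.2% of all events). With MS023 for 4 days 7 of the 23 tested had one, beside 22.4% of all genes (10 of 195 events, beside 3.75% of all events). With GSK591 for 2 days 8 of 224 events were called, beside 7.02%. The shares in this list were 12.4%, 5.13% and 3.57%, close to those of all events or, in the last, under it. The largest difference was in RBM4, which gained an exon with co-treatment for 2 days (ΔΨ 0.248, adjusted p = 1.34e-13). Of 23 further sequence-specific regulators with events, 20 were tested. With GSK591 for 4 days 19 had a called event, beside 45.2% of all genes (60 of 354 events or 16.9%, 26 higher and 34 lower, beside 11.2% of all events). With MS023 for 4 days 10 had one, beside 22.4% of all genes (15 of 371 events or 4.04%, beside 3.75%, so near the level of all events). The largest was an exon of PCBP2, a poly(C)-binding protein, with a ΔΨ of -0.542 under co-treatment for 4 days (adjusted p = 2.67e-36). Under co-treatment for 2 and 4 days 24% and 23.8% of the events of these regulators were called. The other RBM genes had 11.5% and 12.6%, the 10 member genes 18.1% and 20.4%, and all events 13.4% and 14.7%.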

How the data were processed

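The authors made stranded poly(A) libraries, trimmed the reads (Trim Galore 0.6.5 in the submitters' processing notes), aligned them to hg19 with STAR (2.4.2a) and counted events with rMATS. Per the file headers, the deposited tables give whole counts of reads for the inclusion and skipping form of each event in 3 libraries per group, their effective lengths and Ψ as a fraction. The authors' p-value, FDR and difference columns were not used. Ψ was recomputed from the counts and differed from the deposited fraction by at most 0.0005. DMSO counts were identical in tables that share a control.

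Each event with at least 10 reads in every library and both forms seen was fitted with a quasi-binomial model of its inclusion and skipping counts, with the dispersion moderated by limma 3.58.1 (squeezeVar, never under 1) in R 4.3.3. P-values were adjusted by Benjamini-Hochberg within event type and comparison over all events. SE is that of the log2 odds, with 0.5 added to each summed count. The change in effect between 7 and 4 days is a contrast of 4 groups. The moderation drew on a prior of 31.2 degrees of freedom or more for skipped exons (infinite in 5 of 16 comparisons) and of 11.6 to 50.4 for introns, so the own spread of a skipped exon counted little. On simulated skipped exons the fit made more false calls than its adjustment allows, and limma on the log2 odds missed the changes put in.

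Segments were placed with GENCODE 44 lifted to GRCh37, and each is represented by its event with the most reads. Named are, per gene, up to 3 segments with the largest called ΔΨ of at least 0.05 on at least 50 reads, known autoregulated exons and NMD exons, and the most read intron. The 269-nt exon of RBM3 was added after its values were seen. The members and lists were chosen with earlier results of these data known. Alternatives were limma on the log2 odds, read minimums of 1 and 20, adjustment over all event types, Ψ without length correction leaving out each library and, added after seeing the data, a dispersion never under that of the event itself. SKaTER-seq and ActD samples were not analysed here.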

Additional observations from a re-analysis of the deposited data

Results flagged for a closer look

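For 9 events of 3 genes the effect of GSK591 at 7 days differed from its effect at 4 days, by the test of the difference itself over the 2 controls and 2 treated groups. Limma on the log2 odds called none of the 9, and 8 of them were called where each event was given at least the spread of its own libraries. For RBM3 the differences in ΔΨ (7 days minus 4 days) were -0.0331 for a 416-nt extension of exon 3 at its 5′ splice site (adjusted p = 2.69e-06), -0.0356 for intron 3 (adjusted p = 0.000148), -0.0247 for the 269-nt exon (adjusted p = 0.000246), 0.069 for a 70-nt exon against the 269-nt exon (adjusted p = 0.0062) and 0.0195 for exon 3 against the 269-nt exon (adjusted p = 0.00591). These 5 events overlap and share reads. Intron 3 rose by 0.0228 at 4 days and fell by 0.0127 at 7 days, against a DMSO level of 0.0493 ± 0.00562 at 4 days and 0.0667 ± 0.00788 at 7 days.

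For RBM39 the 73-nt exon gave 0.127 (adjusted p = 5.31e-06), and the same exon read against exon 3 gave 0.144 (adjusted p = 0.041). The second was not called without 8 of the 12 libraries, with adjusted p up to 0.154. For TIA1, exon 5 gave 0.235 (adjusted p = 0.00478) and the 133-nt extension of exon 8 gave -0.133 (adjusted p = 0.0247), the latter not called without 6 of the 12 libraries, with adjusted p up to 0.164. The levels with DMSO moved between 4 and 7 days for TIA1 exon 5 (0.8 ± 0.0258 and 0.693 ± 0.037) and for the RBM39 exon (0.161 ± 0.00777 and 0.127 ± 0.0192), and the part of the control in these differences was not tested.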

How the results depend on the processing

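No paired analysis was possible because the count columns carry no replicate numbers. Fitting limma to the log2 odds, where every event weighs the same whatever its reads, lowered the number of member events called against DMSO to 1, 8 and 2 with GSK591 at 2, 4 and 7 days, to 0, 0 and 0 with MS023 and to 9 and 17 with co-treatment at 2 and 4 days. It gave 5, 9 and 5 for GSK591 against MS023 at 2, 4 and 7 days, 0 and 0 for co-treatment against GSK591, 3 for DMSO at 7 against 4 days and 0 for the change in the GSK591 effect. Of 226 calls on named events, 41 were also made by limma and 185 were not, and none changed direction. On simulated skipped exons limma recovered 0 of 200 changes, so its missing calls on skipped exons say little.

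Leaving out 1 library at a time gave 14 to 20, 23 to 29 and 14 to 16 member events called with GSK591 at 2, 4 and 7 days, 8 to 13, 13 to 21 and 9 to 17 with MS023, and 33 to 38 and 34 to 41 with co-treatment. GSK591 against MS023 gave 21 to 31, 26 to 32 and 15 to 23, co-treatment against GSK591 10 to 21 and 17 to 22, and DMSO at 7 against 4 days 9 to 17. The lowest counts for MS023 came without MS023 library a at 2 days, b at 4 days and c at 7 days. Such losses were not particular to the 10 genes. Among all events, calls with GSK591 for 7 days fell from 9095 to between 4336 and 5389. Those with MS023 for 2 days fell from 3609 to between 903 and 2783. Of the 226 calls on named events, 81 were lost without at least 1 library. Adjustment over all event types ended 9 of them, read minimums of 1 and 20 none, and counts moved by less than 1.5 times under these settings. An alternative chosen after seeing the data gave each event at least the spread of its own libraries. It left 188 of the 226 calls, lowered co-treatment against GSK591 at 2 days from 21 to 12 member events, and moved the other counts by less than 1.5 times. The cause of these differences was not tested. PTBP2 exon 10 had 20 to 130 reads per library, and the part of depth in its calls was not tested.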
